A study of Homo sapiens with 6 samples.

Results

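The genes described here are 10 transcripts that report or restrain the output of the ERK pathway: DUSP4, DUSP5, DUSP6, SPRY2, SPRY4, SPRED1, SPRED2, ETV4, ETV5 and PHLDA1. They were taken by symbol from a table of 38637 genes. All 10 were present, and all 10 had a mean of at least 1 TPM (reads divided by gene length and scaled to 1000000 per library), the floor for testing that 13980 genes passed. The samples were HCCLM3-SR cells, the sorafenib-resistant derivative of the human hepatocellular carcinoma (HCC) line HCCLM3. Both groups of 3 libraries were kept in 5 µM sorafenib and differed in the siRNA given for 3 days, which was directed at the circular RNA cDCBLD2 in the knockdown group and was a control siRNA in the other. The comparison asks which polyadenylated transcripts differ when cDCBLD2 is silenced under the drug. A single resistant line was used, and the labels do not say whether the libraries of a group came from separate cultures, so the p-values measure the spread between these libraries, which may be technical.

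ERK is the last kinase of the RAS-RAF-MEK-ERK cascade, which carries signals from growth factor receptors to the nucleus. Active ERK switches on its own brakes: dual-specificity phosphatases that remove the activating phosphates of MAP kinases, and Sprouty and SPRED proteins that act upstream, near RAS and RAF. The transcription factors ETV4 and ETV5 are induced by the same signal, and the levels of such transcripts are commonly read as a gauge of pathway activity. Sorafenib is a multikinase inhibitor whose known targets include RAF kinases.

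Between 17487706 and 23057424 reads per library could be recovered from the ratios of the TPM values, with replicate 1 the shallowest in both groups. DCBLD2, the host gene of cDCBLD2, had a log2 fold change of -0.61 (standard error 0.31, adjusted p = 0.253, and 0.0139 with the replicate number as a block). The libraries were made from polyadenylated RNA and the values are per gene, so this is no measure of the circular RNA. In its own assays the paper saw no clear and consistent shift of DCBLD2 mRNA or protein across its resistant lines after cDCBLD2 knockdown. The GC correction took DCBLD2 to -0.29 (adjusted p = 0.468, and 0.0499 with the block), and leaving out 1 library gave -0.95 (without knockdown replicate 1) to -0.38 (without knockdown replicate 2). Of 10 hepatocyte markers, 6 had a mean of at least 1 TPM, among them KRT8, KRT18 and HNF4A, whereas the means of the plasma protein genes ALB, APOA1, TF and TTR over the 6 libraries were under 1 TPM. TTR was at 1.64, 1.55 and 1.30 TPM in the knockdown libraries and at 0.241, 0.202 and 0.203 TPM in the controls, and ALB was above 1 TPM only in control replicates 2 and 3 (1.03 and 1.58 TPM). APOB went the other way from TTR, at 2.71, 0.902 and 1.30 TPM after knockdown and 4.26, 2.72 and 3.35 TPM in control cells. The summed hepatocyte markers, nearly all keratin, ran from 5840 to 7009 TPM after knockdown and from 4830 to 5649 TPM in control cells. Of 6 leukocyte markers, 2 had a mean of at least 1 TPM (CD68 and LYZ), CD3E and MS4A1 were at 0 in all libraries, and the sum was 103 to 131 TPM after knockdown and 94.6 to 116 TPM in control. For 6 stromal markers, of which 3 reached that level, the sums were 32.3 to 76.9 and 30.1 to 43.8 TPM, and for 5 endothelial markers, of which 1 did, 4.59 to 5.23 and 3.81 to 5.84 TPM. Knockdown replicate 1 gave the upper end of the stromal range, with LUM at 59.0 TPM (26.7 to 39.6 TPM in the other 5 libraries) and COL1A2 at 2.67 TPM (0 in the other 5). The collagen genes COL1A1 (11.2, 3.61 and 3.64 TPM against 3.35, 1.13 and 2.15 TPM) and COL3A1 (3.36, 1.78 and 1.96 TPM against 0.783, 0.476 and 0.546 TPM) were higher in all 3 knockdown libraries than in any control library. The part of these markers in the results below was not tested. Fewer expressing cells and less RNA per cell cannot be told apart in these bulk libraries.

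No ERK output or feedback gene passed the test across all genes (limma on log2(TPM + 1), adjusted p under 0.05), in which 0.250% of the 13980 genes were higher and 0.629% were lower after knockdown. With an added |log2 fold change| over 1, 0 of the 10 passed either, against 0.0501% of genes higher and 0.0787% lower. At an unadjusted p under 0.05 there were 2 of 10, SPRY4 and SPRED2, both with a negative fold change, against 26.1% of all genes. When the replicate number was entered as a block, since same-numbered libraries deviated together, SPRY4, SPRED1 and SPRED2 were lower and 0 were higher. That fit called 25.0% of all genes lower and 9.94% higher, so 3 of 10 is a share near the background. Limma-voom on the recovered reads with the block called the same 3 genes, against 22.0% of all genes lower and 18.7% higher. Without the block, limma-voom put SPRY4 at -0.37, SPRED1 at -0.25, SPRED2 at -0.16 and the other 7 between -0.07 and 0.12, DUSP4 at -0.03 among them. In the control cells PHLDA1 was the most abundant of the 10 transcripts and SPRED1 the least, on the length-normalized TPM scale.

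**Figure D1:**
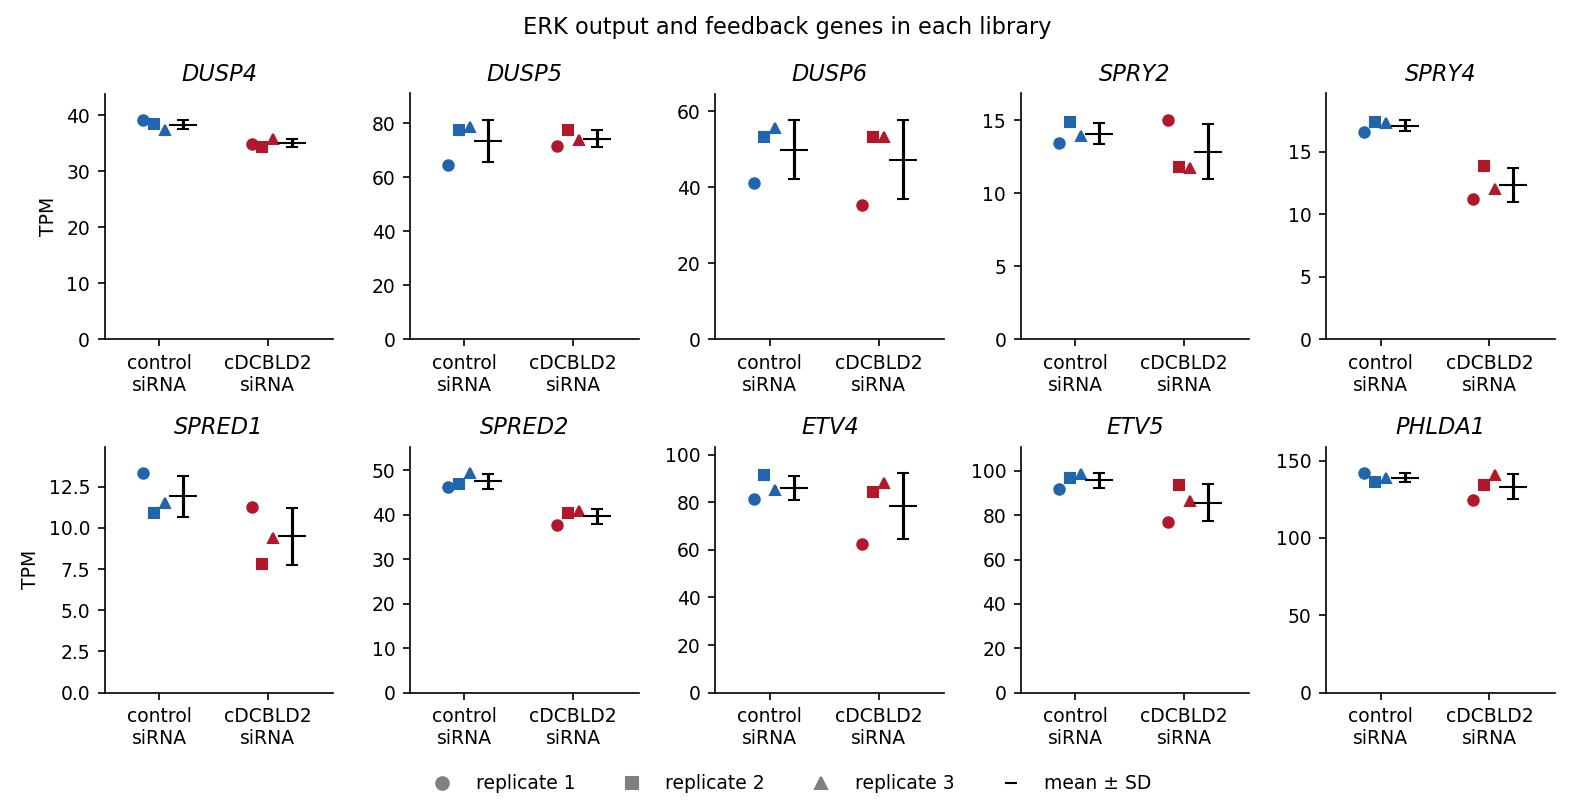
TPM of each gene in the 3 control siRNA and the 3 cDCBLD2 siRNA libraries, with symbols for the replicate number and a bar for the mean ± SD (n = 3) beside them. The groups are apart for DUSP4, SPRY4 and SPRED2 and overlap for the other 7 genes.

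In descending order of control mean the genes were PHLDA1, ETV5, ETV4, DUSP5, DUSP6, SPRED2, DUSP4, SPRY4, SPRY2 and SPRED1. Means ran from 139 TPM to 11.9 TPM. DUSP6 and SPRED2 overlapped in their control values (ratio of means 1.05), and in the other 8 neighbouring pairs the upper gene's mean exceeded the lower one's by a factor of 1.11 at the least, for ETV5 over ETV4, and of 2.24 at the most, for DUSP4 over SPRY4. These 8 pairs did not overlap in their control values.

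The MAP kinase phosphatases showed small differences. DUSP4, a nuclear phosphatase of ERK and related kinases, had 34.9, 34.4 and 35.7 TPM in the knockdown libraries (in the order of replicates 1, 2 and 3, as for each gene) against 39.1, 38.5 and 37.4 TPM in the controls, from 1759 to 2357 recovered reads per library. All 3 knockdown libraries lay under all 3 control libraries, although by a narrow margin. The means were 35.0 ± 0.680 TPM (SD, n = 3) and 38.3 ± 0.855 TPM (SD, n = 3). The log2 fold change was -0.13 (standard error 0.06, 95% interval -0.28 to 0.03, adjusted p = 0.262), and the two-sided exact permutation test gave p = 0.1, the smallest that 3 against 3 libraries allow.

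DUSP5 is a nuclear phosphatase specific for ERK (chr10:110497838-110511544, plus strand, GRCh38). Its values were 71.4, 77.5 and 73.8 TPM after knockdown and 64.3, 77.3 and 78.5 TPM in control cells. The control range enclosed all 3 knockdown values, and the lowest library was control replicate 1. The means of 74.2 ± 3.04 and 73.4 ± 7.84 TPM (SD, n = 3 each) gave a log2 fold change of 0.02 (standard error 0.09, 95% interval -0.20 to 0.25, adjusted p = 0.901), the only positive one of the 10. DUSP6, the cytoplasmic phosphatase for ERK and a standard readout of MEK inhibition (chr12:89347232-89353271, minus strand), was at 35.3, 53.4 and 53.4 TPM after knockdown and at 41.2, 53.2 and 55.5 TPM in control cells. Replicate 1 was the low library of both groups, at -0.58 on the log2 scale relative to the mean of replicates 2 and 3 after knockdown and at -0.39 in control cells. Across groups the means were 47.3 ± 10.4 and 50.0 ± 7.72 TPM (SD, n = 3 each), and the log2 fold change was -0.09 (standard error 0.19, 95% interval -0.55 to 0.37, adjusted p = 0.798). The block on replicate number brought the standard error of DUSP6 to 0.06, its 95% interval to -0.24 to 0.06 and the adjusted p to 0.296. On the opposite strand of DUSP6, GENCODE release 29 annotates a gene that shares 1875 exon bases with it, and the labels name no strand-specific kit, so reads of such a partner could not be separated.

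Of the Sprouty genes, whose products are membrane-associated inhibitors of signaling from receptors to RAS and RAF, SPRY4 and SPRY2 were compared. SPRY4 (chr5:142310427-142326455, minus strand) had 11.2, 13.8 and 12.0 TPM with cDCBLD2 siRNA against 16.6, 17.4 and 17.3 TPM with control siRNA, from 556 to 1000 recovered reads. Every knockdown library was under every control library, and the gap between the groups exceeded the range within either of them. Averaged, SPRY4 had 12.3 ± 1.35 TPM (SD, n = 3) with cDCBLD2 siRNA against 17.1 ± 0.454 TPM (SD, n = 3) with control siRNA, a difference of -27.8%. SPRY4 had the largest fold change of the 10 genes on the log2 scale, -0.44 (standard error 0.10, 95% interval -0.69 to -0.20), larger in size than that of 80.6% of all genes tested. It missed the threshold without the block (unadjusted p = 0.00386, adjusted p = 0.0748) and was lower with it (adjusted p = 0.0113). Without the block, leaving out knockdown replicate 1 gave a fold change of -0.38 and an adjusted p of 0.0361. That fit called 2771 of 13980 genes lower, against 88 in the main fit, so its call is not particular to SPRY4. Leaving out each of the other libraries gave fold changes from -0.52 to -0.43 and adjusted p from 0.171 to 0.257. With each library's trend along transcript GC content removed, SPRY4 was at -0.43 (adjusted p = 0.0784, and 0.0124 with the block as well).

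SPRY2, which is on chr13:80335976-80340951 (minus strand), was measured at 15.0, 11.8 and 11.7 TPM after knockdown and at 13.4, 14.8 and 13.9 TPM in control cells. Knockdown replicate 1 was the highest of the 6 libraries, and the remaining knockdown libraries were the lowest. With 314 to 413 recovered reads SPRY2 was the gene with the fewest reads among the 10, and counting error alone came to 5.64% in its shallowest library. The means were 12.9 ± 1.88 and 14.1 ± 0.714 TPM (SD, n = 3 each), and the log2 fold change was -0.13 (standard error 0.12, 95% interval -0.42 to 0.16, adjusted p = 0.520). The differences within the numbered pairs did not share a sign, with 0.15, -0.31 and -0.23 in pairs 1, 2 and 3. SPRY2 was at -0.02 once the GC trend was removed, and with 1 library left out it ranged from -0.24 (without knockdown replicate 1) to -0.07 (without knockdown replicate 3).

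SPRED1 and SPRED2 encode Sprouty-related proteins that recruit the RAS GTPase-activating protein neurofibromin to the membrane. SPRED2 (chr2:65310851-65432637, minus strand) was at 37.7, 40.4 and 40.9 TPM after knockdown and at 46.2, 47.0 and 49.4 TPM in control cells, from 1632 to 2466 recovered reads. The groups were apart. Its means were 39.7 ± 1.71 and 47.5 ± 1.66 TPM (SD, n = 3 each), a difference of -16.5% and a log2 fold change of -0.25 (standard error 0.07, 95% interval -0.42 to -0.09). The pairs agreed closely, at -0.28, -0.21 and -0.26 on the log2 scale. The adjusted p was 0.0976 without the block and 0.0148 with it. Removal of the GC trend left SPRED2 at -0.15, with an adjusted p of 0.299, or 0.0677 with the block.

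SPRED1 (chr15:38252326-38357249, plus strand) was the least abundant of the group, at 11.3, 7.80 and 9.38 TPM after knockdown and at 13.3, 10.9 and 11.5 TPM in control cells. Replicate 1 was the highest library of each group, the reverse of DUSP6, and the groups overlapped through it. The means were 9.48 ± 1.73 and 11.9 ± 1.25 TPM (SD, n = 3 each), a difference of -20.4%. At -0.31 its log2 fold change came with a standard error of 0.15 and an adjusted p of 0.239 without the block (95% interval -0.67 to 0.05), and with 0.08 and 0.0336 when the block was used. Among the 10 genes SPRED1 had the lowest GC content, 38.9% of its longest transcript. With the GC trend removed its fold change turned to 0.09 (adjusted p = 0.558, and 0.363 with the block), so the lower level of SPRED1 with the block did not hold under that correction. Leaving out 1 library gave fold changes from -0.43 to -0.19.

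**Figure D2:**
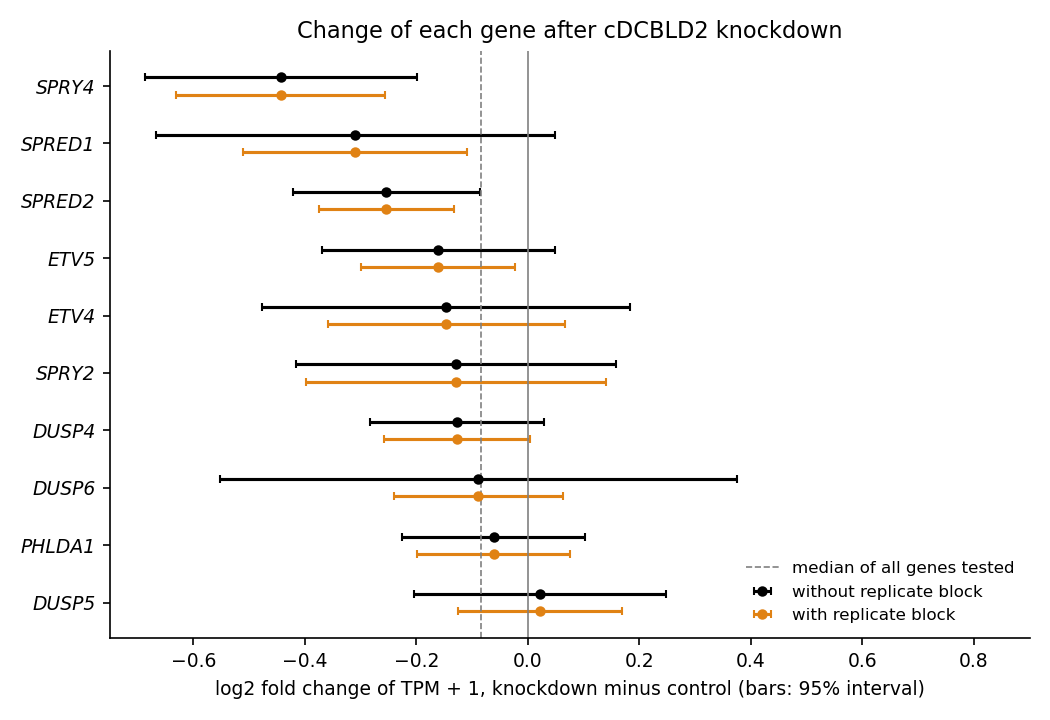
Log2 fold change of TPM + 1 (knockdown minus control) of each gene with its 95% interval, from the fit without the replicate block (black) and with it (orange), with the median of all 13980 genes tested as a dashed line. The intervals of SPRY4 and SPRED2 exclude 0 in both fits, and those of SPRED1 and ETV5 exclude 0 with the block.

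The study follows the microRNA miR-345-5p together with cDCBLD2, so matches to its seed were looked for in the members' transcripts. The mature sequence, from the RefSeq table on GRCh38.p14 (chr14:100307876-100307897, plus strand), is shown with its seed, bases 2 to 8, in capitals. The sites found are given 5′ to 3′ on the transcript strand with the 7 bases complementary to the seed in capitals, from GENCODE release 29 on GRCh38: SPRED2 at chr2:65311736-65311760 and SPRY4 at chr5:142312622-142312646, both on the minus strand and both in the 3′ UTR of the longest coding transcript.
hsa-miR-345-5p: gCUGACUCcuaguccagggcuc
SPRED2 site: agtgtgcttatGAGTCAGttagtag
SPRY4 site: gggcatggcctGAGTCAGaagagct
Among the 10 genes SPRED2 and SPRY4 alone carried such a match in a 3′ UTR, and none carried one in the coding sequence. A match in the 3′ UTR was found in 1301 of 11803 tested genes with an annotated coding transcript, or 11.0%, and one in the coding sequence in 12.7%. Whether these sites bear on the levels of SPRED2 and SPRY4 was not tested, and the microRNA itself was not measured in these libraries.

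ETV4 and ETV5 encode ETS transcription factors of the PEA3 subfamily, which carry ERK and FGF receptor signals into transcription. ETV4 (chr17:43527844-43579620, minus strand) was at 62.5, 84.3 and 88.2 TPM after knockdown and at 81.3, 91.4 and 85.3 TPM in control cells. Knockdown replicate 1 was well under the other 5 libraries, which overlapped. The means were 78.3 ± 13.8 and 86.0 ± 5.09 TPM (SD, n = 3 each), and the log2 fold change was -0.15 (standard error 0.14, 95% interval -0.48 to 0.18, adjusted p = 0.527). Without knockdown replicate 1 the ETV4 fold change was 0.01. ETV4 has the highest GC content of the 10 genes (60.8%), and with the GC trend removed its fold change was -0.26, with an adjusted p of 0.204, or 0.0499 with the block, the only fit of those run in which ETV4 passed.

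ETV5 (chr3:186046308-186110318, minus strand) was at 76.9, 93.6 and 86.6 TPM after knockdown and at 92.0, 96.7 and 98.4 TPM in control cells. The knockdown values overlapped the control range through replicate 2. With means of 85.7 ± 8.41 and 95.7 ± 3.30 TPM (SD, n = 3 each), the log2 fold change was -0.16 (standard error 0.09, 95% interval -0.37 to 0.05, adjusted p = 0.285, and 0.0725 with the block). With the GC trend removed ETV5 was at -0.05, with a 95% interval of -0.19 to 0.09 under the block, and leaving out 1 library gave -0.23 (without knockdown replicate 2) to -0.09 (without knockdown replicate 1). An exon stretch of 164 bases of ETV5 is shared with DGKG on the same strand, a gene at 5.87 to 9.42 TPM, and ETV4 shares 68 bases with DHX8 on the opposite strand, so a small part of these reads may belong to the neighbors.

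PHLDA1, a pleckstrin homology domain protein induced by ERK signaling (chr12:76025447-76033932, minus strand), was at 124, 134 and 141 TPM after knockdown and at 142, 136 and 139 TPM in control cells, from 5099 to 7492 recovered reads. It had the most reads of the 10 genes, and its groups overlapped. The means were 133 ± 8.36 and 139 ± 2.98 TPM (SD, n = 3 each), and the log2 fold change was -0.06 (standard error 0.07, 95% interval -0.23 to 0.10, adjusted p = 0.599). The sign of PHLDA1 depended on the processing: its fold change was 0.01 after upper-quartile scaling, 0.03 with limma-voom on recovered reads and 0.18 with the GC trend removed, where the adjusted p was 0.373, or 0.121 with the block. The annotation holds a pair of genes on its opposite strand, with 553 and 779 shared exon bases.

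Promoter windows of RefSeq (GRCh38.p14, 250 bases before to 50 bases after a start site) were available for 6 of the 10 genes, DUSP6, SPRY2, SPRY4, SPRED1, SPRED2 and PHLDA1. They were searched on both strands for the core of ETS sites, CCGGAA, because ETV4 and ETV5 are ETS factors. Matches were found at position -89 from a start site of PHLDA1 (chr12:76031848-76031877) and at -142 from one of SPRY2 (chr13:80341251-80341280), both windows on the minus strand, shown here 5′ to 3′ with the match in capitals.
PHLDA1 promoter: gaggagaggagtTTCCGGggctcgggtccg
SPRY2 promoter: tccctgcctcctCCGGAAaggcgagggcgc
The PHLDA1 match is the reverse complement of the SPRY2 one. Of 35116 windows of this length 17.2% hold the core, and neither gene passed the test in any of the fits run. SPRY2 had 3 windows, SPRED2 had 2 and each of the others had 1, so a share of windows is not a share of genes. An AP-1 motif, TGANTCA, was found in the second SPRED2 window only, at -6 and 34 from its start site (7.7% of all windows hold one). The cAMP response element (TGACG followed by TCA, in 1.8% of windows) and the CArG box (in 1.3%) were not matched in these windows.

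Across the 10 genes, 9 had a negative log2 fold change, against 62.4% of all genes tested. The median was -0.14, and that of all genes was -0.08. Both depended on the scaling, and after upper-quartile scaling they were -0.07 and -0.02. With limma-voom DUSP6 (0.01) and PHLDA1 (0.03) were positive as well as DUSP5 (0.12). In 3 genes, DUSP4, SPRY4 and SPRED2, the knockdown libraries all lay below the control libraries, and in 0 they all lay above. Over all genes tested, the groups were apart in these directions in 22.3% and 9.58%. Within the numbered pairs, 5 genes (DUSP4, SPRY4, SPRED1, SPRED2 and ETV5) were lower after knockdown in all 3 pairs, as were 43.7% of all genes, and 0 were higher in all 3, as were 22.0% of all genes. Nothing in these counts is read as particular to the 10 genes.

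**Figure D3:**
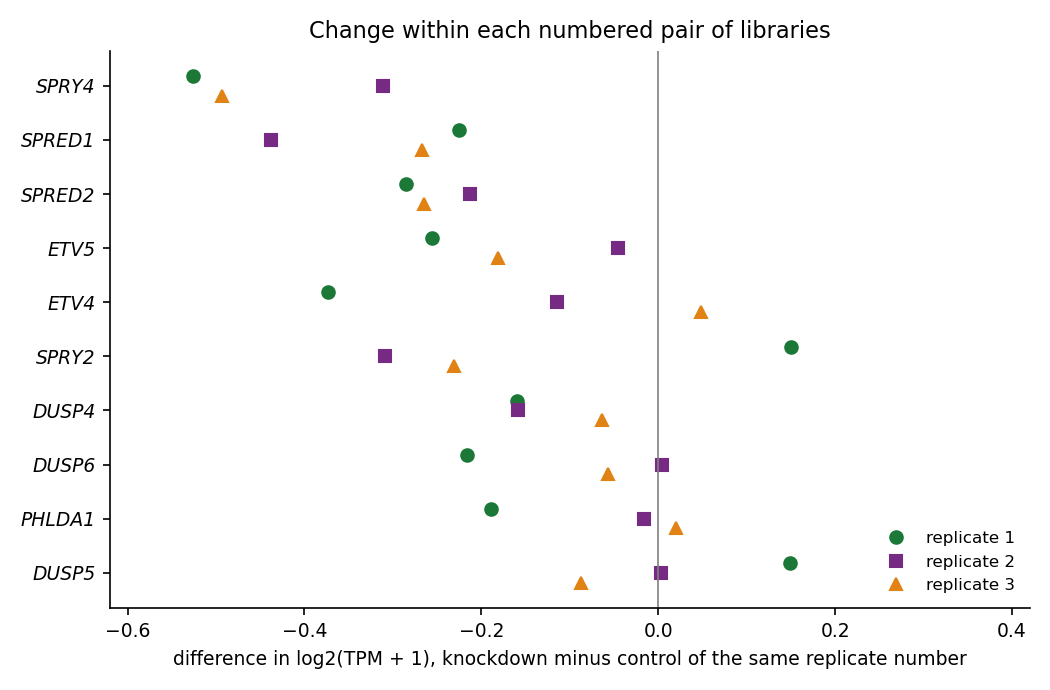
Difference in log2(TPM + 1) between the knockdown and the control library of the same replicate number, for each gene (3 points per gene). All 3 points lie below 0 for SPRY4, SPRED1, SPRED2, ETV5 and DUSP4, and pair 1 stands apart from pairs 2 and 3 for SPRY2.

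Replicate 1 was a source of spread within the groups. In 6 of the 10 genes (DUSP5, DUSP6, SPRY4, SPRED2, ETV4 and ETV5) it lay below the mean of replicates 2 and 3 in both groups, and in SPRED1 it lay above in both. Over all genes tested, 32.8% were lower and 46.3% were higher in replicate 1 of both groups. The largest such deviations among the 10 genes were those of DUSP6. For DUSP6 the block reduced the standard error from 0.19 to 0.06, whereas for SPRY2, which deviated in opposite directions in replicate 1 of the groups (0.33 and -0.09), it did so only from 0.12 to 0.11.

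The fold changes followed the base composition of the transcripts. Over the 13163 genes with a GC content, Spearman's rho between GC content and log2 fold change was 0.642 (across genes, which are not independent replicates), and when genes were ordered by GC content and cut into 5 equal bins, the bin medians climbed from -0.40 to 0.11. Of the 10 genes, the median GC content was 48.6%, close to the 49.5% of all genes tested. The trend was removed from each library without regard to its group, so a difference between the groups that follows GC content goes with it. A technical trend and a response linked to GC content cannot be told apart here. With the GC trend of each library removed the median fold change of the 10 genes was -0.04, and 7 of 10 were negative, against a median of -0.00 and 6708 negative of 13163 genes under the same correction. DUSP6, SPRED1 and PHLDA1 changed from negative to positive and DUSP5 from positive to negative. SPRY4 moved the least of the 3 genes that were lower with the block. With the block and this correction together, 2 of the 10 genes were lower, SPRY4 and ETV4, and 0 were higher, against 12.9% of all genes lower and 11.7% higher.

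**Figure D4:**
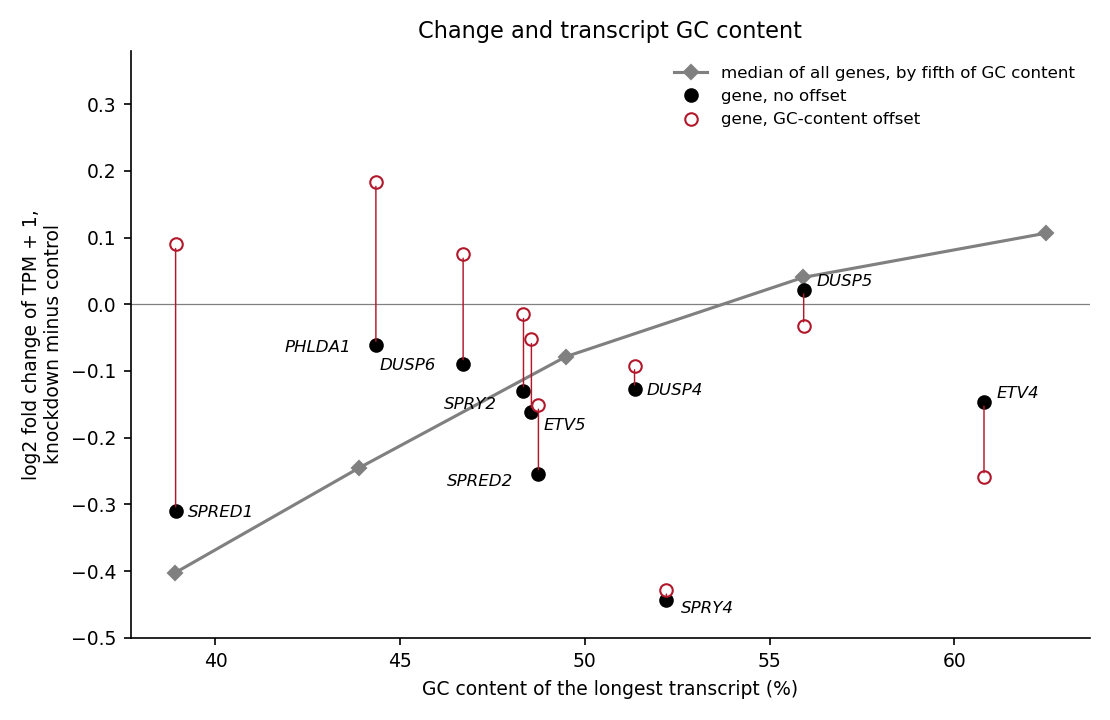
Log2 fold change of TPM + 1 (knockdown minus control) against the GC content of the longest transcript for each gene, before (black) and after (open red) removal of each library's GC trend, with the medians of all genes in 5 equal bins of GC content in grey. SPRY4 stays at about the same fold change (-0.44 and -0.43), while SPRED1 moves from -0.31 to 0.09.

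The 91 other genes of the pathway were set beside these 10 in 6 lists, and 78 of them reached a mean of 1 TPM. Without the block, 0 of the 78 were higher and 0 were lower (28 at an unadjusted p under 0.05, a level that 26.1% of all genes reached). With the block, 14 were higher and 24 were lower, of 78, against the 9.94% and 25.0% of all genes. With the block and the GC correction, 11 were higher and 13 were lower, against the 11.7% and 12.9% of all genes. The counts of each list below are to be read against these shares. Relatives of the output genes went both ways. With the block, 2 of 11 were higher and 3 were lower (1 and 2 with the GC correction as well, where PHLDA2, at -0.24 with an adjusted p of 0.0103, was a call gained), and the median log2 fold change was -0.01. Without the GC correction PHLDA2 was at -0.10 (adjusted p = 0.0976 with the block), and with limma-voom it was at -0.01.

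Among these relatives DUSP8, a phosphatase for JNK and p38, had the highest fold change, 0.68 (standard error 0.12, adjusted p = 0.0544, and 0.00857 with the block), from 9.70, 9.44 and 9.68 TPM after knockdown against 4.81, 5.88 and 6.32 TPM in control cells. DUSP1, an immediate early phosphatase, was at 0.39 (adjusted p = 0.289, and 0.0441 with the block), but at 0.15 without control replicate 1, and SPRED3 at 0.29 (0.242 and 0.146, where a pair in parentheses gives the adjusted p without and with the block, here and for the genes that follow). With limma-voom and the block SPRED3 was at 0.48 and passed (adjusted p = 0.035). The lowest was DUSP16, also a phosphatase for JNK, at -0.58 (adjusted p = 0.0885, and 0.00521 with the block). SPRY1 and ETV1 were both at -0.42, with adjusted p of 0.113 and 0.0849, or 0.0101 and 0.0175 with the block. With the GC trend removed SPRY1 was at -0.19 and ETV1 at -0.00, and both lost their call with the block (adjusted p = 0.0664 and 0.984), as did DUSP1 at 0.35 (0.0637), whereas DUSP8 (0.53, 0.0205) and DUSP16 (-0.43, 0.0121) kept it.

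The cascade itself had a median of -0.18 over 22 genes, of which 3 were higher and 10 were lower with the block, against 9.94% and 25.0% of all genes. With the GC correction as well, 4 were higher and 5 were lower, and the median was -0.08. RRAS2 (0.32, adjusted p = 0.0286) and LAMTOR3 (0.28, 0.0485) were higher only in that fit of the 2. The GC correction turned their sign. Without it RRAS2 was at -0.14 (adjusted p = 0.191 with the block) and LAMTOR3 at -0.15 (0.210 with the block). SOS1, the nucleotide exchange factor of RAS, had the lowest fold change, -0.96 (adjusted p = 0.0663, and 0.00556 with the block), at 11.8, 6.57 and 8.70 TPM against 19.7, 16.0 and 18.7 TPM. The scaffolds IQGAP1 (-0.82) and SHOC2 (-0.76) were next. These 3 transcripts have a GC content between 37.2% and 43.6% and were at -0.53, -0.55 and -0.32 with the GC trend removed. With the block their adjusted p was then 0.00798, 0.0116 and 0.0333. The highest fold changes of the cascade were those of RRAS (0.43), HRAS (0.31) and the adaptor SHC1 (0.24), with adjusted p of 0.272, 0.152 and 0.0892, or 0.00444, 0.0102 and 0.00964 with the block. Removal of the GC trend took them to 0.29, 0.15 and 0.18, and with the block HRAS then lost its call (adjusted p = 0.0916). RRAS (0.00928) and SHC1 (0.0209) kept theirs.

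Inhibitors of the cascade outside the 10 genes had a median of -0.01 over 15 genes, with 2 higher and 5 lower with the block, or 2 and 2 with the GC correction as well. The RAS GTPase-activating proteins NF1 (-0.79), RASA1 (-0.72) and RASAL2 (-0.56) were at the low end, with adjusted p of 0.0674, 0.112 and 0.141, or 0.00779, 0.00944 and 0.0269 with the block. With the GC trend removed they were at -0.46, -0.29 and -0.21, and with the block NF1 kept its call (adjusted p = 0.0149) while RASA1 (0.0527) and RASAL2 (0.177) lost theirs. NF1 encodes neurofibromin, the partner of the SPRED proteins. At the high end were PEA15 (0.31, adjusted p = 0.177, and 0.0361 with the block), SPRED3 and ERRFI1 (0.20, 0.596 and 0.116), which the GC correction moved to 0.48 (0.029 with the block) and which ranged from 0.02 (without knockdown replicate 3) to 0.43 (without knockdown replicate 1) with 1 library left out. Leaving out 1 library gave PEA15 fold changes from 0.17 to 0.40. With the GC trend removed PEA15 was at 0.34 and kept its call with the block (adjusted p = 0.0252).

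**Figure D5:**
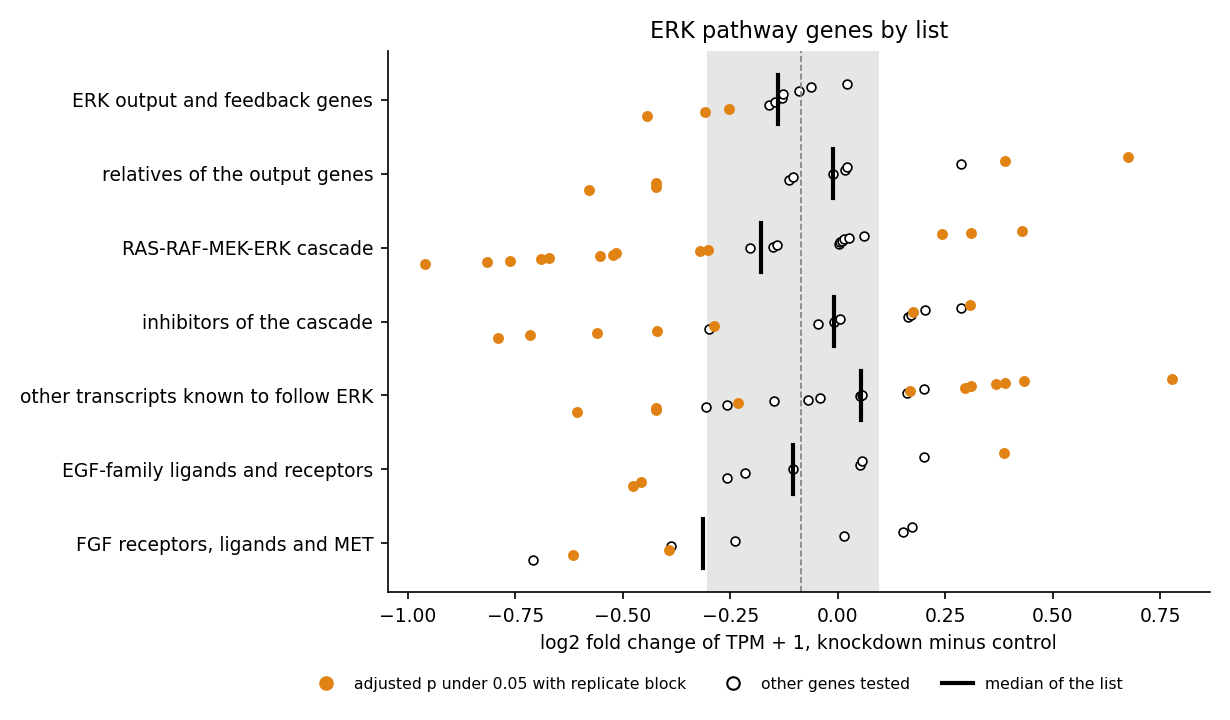
Log2 fold change of TPM + 1 (knockdown minus control) of the tested genes of each ERK pathway list, with genes at an adjusted p under 0.05 in the fit with the replicate block in orange, a bar at each list's median, and the quartiles and median of all genes tested as a grey band and a dashed line. The 10 output and feedback genes span -0.44 to 0.02 and the 22 cascade genes -0.96 to 0.43, ranges over unequal numbers of genes.

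Other transcripts known to follow ERK had a median of 0.05 over 20 genes, and with the block 7 were higher and 4 were lower, against 9.94% and 25.0% of all genes. With the GC correction as well, 3 were higher and 1 was lower, and the median was 0.12. FOS, an immediate early transcription factor, was at 11.0, 52.6 and 76.4 TPM after knockdown and at 10.2, 22.4 and 36.6 TPM in control cells. Replicate 1 was the lowest FOS library in both groups, and the difference of 0.78 had a standard error of 0.76 without the block (adjusted p = 0.544, and 0.0407 with it). Leaving out 1 library moved FOS between 0.24 (without knockdown replicate 3) and 1.59 (without knockdown replicate 1). PLAUR was at 0.43 (0.112 and 0.0431, and 0.0595 with the block and the GC correction) and DUSP1 again at 0.39. ELK3, an ETS factor, had the lowest value at -0.61 (adjusted p = 0.0753, and 0.00444 with the block), followed by SPRY1 and ETV1. ELK3 was at -0.31 with the GC trend removed (0.0163 with the block). The 3 genes higher with the block and the GC correction were FOS (0.78, adjusted p = 0.0460), IER3 (0.28, 0.00956) and EGR1 (0.26, 0.0485). Without the block and that correction IER3 was at 0.37 (adjusted p = 0.326) and EGR1 at 0.31 (0.508). Like FOS, DUSP6 had its lowest value in replicate 1 of both groups. Over all genes tested, replicate 1 lay below the mean of replicates 2 and 3 in both groups in 32.8%, and above it in 46.3%.

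Of the receptors and ligands upstream, 9 EGF-family genes had a median of -0.10, with 1 higher and 2 lower with the block, or 1 and 1 with the GC correction as well, where the median was 0.20. ERBB2 was at 0.39 (adjusted p = 0.118, and 0.0141 with the block), HBEGF at 0.20 (0.492 and 0.149) and AREG at 0.06 (0.886 and 0.737). With the GC trend removed AREG was at 0.27 (adjusted p = 0.0887 with the block). EGFR was at -0.48 (0.0702 and 0.00762), EGF at -0.46 (0.0849 and 0.0213) and EREG at -0.26 (0.508 and 0.221). EGF was at -0.21 after removal of the GC trend and lost its call with the block (adjusted p = 0.145). EGFR (-0.34, 0.0121) and ERBB2 (0.29, 0.0369) kept theirs. The 8 tested genes of the FGF and MET list had a median of -0.31, and with the block 0 were higher and 2 were lower, MET and FGF2. With the GC correction added the 2 were MET and FGFR4 (-0.37, adjusted p = 0.0211), and the median was 0.04. Without that correction FGFR4 was at -0.24 (0.406 and 0.0886), and it ranged from -0.34 to -0.05 with 1 library left out. The adaptor FRS2 was at -0.71 (0.249 and 0.0671), MET at -0.62 (0.0856 and 0.0054) and FGF2 at -0.39 (0.28 and 0.0323, a call lost at 0.04 with the GC trend removed, adjusted p = 0.732), while FGFR3, FRS3 and IGF1R were at 0.17, 0.15 and 0.01 and passed neither fit. FRS2 was at -0.26 and MET at -0.31 (0.00842 with the block) after removal of the GC trend. FGFR3 was then at 0.05, FRS3 at 0.04 and IGF1R at 0.04.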

How the data were processed

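PolyA-Seq gave 6 libraries, 3 per group, grouped by the sample titles. The authors deposited 1 TPM value per gene and library, and their processing notes list fastp 0.20.1, HISAT2 2.1.0, StringTie 2.0 and hg38, while the annotation is not given in the sources used here. TPM carries no depth, and multimapping and strand settings are not stated. From the deposited TPM values whole reads were recovered from the ratios between libraries: all 17285 genes above 0 in all 6 libraries came out whole (of the 10388 with 10 to 1000 reads in their smallest library, 100% were whole, and 0% after the library factors were moved at random). The totals are lower bounds and cover counting error only.

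The test was limma 3.58.1 (R 4.3.3, mean-variance trend, two-sided) on log2(TPM + 1) for genes averaging 1 TPM or more, a scale that understates the change of low genes, with Benjamini-Hochberg adjustment over 13980 genes. Every adjusted p in the text comes from limma. Single genes also had an exact permutation test. The replicate numbers come from the titles, and deviations from the group means correlated between same-numbered libraries (0.56, 0.34 and 0.36). Replicates 2 and 3 also correlated across numbers (0.21 and 0.25), and pairs of replicate 1 with another number did so negatively (-0.45 to -0.38). Deviations from a group mean cancel out within the group. The values of replicates 2 and 3 thus depend in part on that of replicate 1. As every same-number value was over 0.1, the fit with the block is given beside the main one. GC content came from the longest GENCODE release 29 transcript (94.2% of genes tested), and loess (span 0.5) removed each library's trend.

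The members, lists and named genes (all 10 members, and per list up to 3 genes with the highest and up to 3 with the lowest fold change) were chosen with earlier results of these data known, so no list was tested as a set. PHLDA2, FGFR4, RRAS2, LAMTOR3, IER3 and EGR1 fall outside this rule and were named after their values were seen. Alternatives were another scaling, other filters, a pseudocount of 0.1, no trend, a fold threshold, the block, the GC correction and dropping each library in turn. On recovered reads, limma-voom was chosen after seeing the data. The fits were tested on simulated data. Python 3.11.15, pandas 2.3.3, numpy 2.4.6, numba 0.67.0 and matplotlib 3.10.9 were used.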

Additional observations from a re-analysis of the deposited data

How the results depend on the processing

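Without the block, 0 ERK output and feedback genes were lower, whereas the block gave 3 (SPRY4, SPRED1 and SPRED2), the block with the GC correction 2 (12.9% of all genes), and limma-voom with the block 3 (22.0% of all genes), and leaving out 1 library gave 0 to 1 (SPRY4, without knockdown replicate 1). None was higher in any fit. Limma-voom without the block called 0 of the 10 and 491 of all genes. For the other lists, the higher genes numbered 14 with the block, 1 with a floor of 5 TPM, 11 with the block and the GC correction, 1 with limma-voom, 19 with limma-voom and the block, and 0 to 3 with 1 library left out. The lower genes numbered 24, 13 with the block and the GC correction, 2 with limma-voom, 24 with limma-voom and the block, and 0 to 25 with 1 library left out. Over all genes the floor of 5 TPM called 83 of 10245 higher, and limma-voom called 207 higher and 284 lower of 13759. The fit without knockdown replicate 1 called 649 genes higher and 2771 lower over all genes, and the other 5 such fits called 0 (2161 to 2803 at an unadjusted p under 0.05). The cause was not tested.

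Over 160 values for the 10 genes, 134 kept their direction and side of the threshold, 9 newly passed it and 17 changed sign, and for 33 other named genes these were 421, 91 and 9 of 521. The GC correction turned DUSP5 to -0.0326, DUSP6 to 0.0753, SPRED1 to 0.0898, PHLDA1 to 0.183, EREG to 0.204 and FGF2 to 0.0401 without and with the block. RRAS2 and LAMTOR3, which are not among these 33 genes, also turned from negative to positive. DUSP6 was at 0.0110 with limma-voom and 0.0171 with the block as well, and PHLDA1 at 0.0090 with upper-quartile scaling, 0.0336 with limma-voom and 0.0349 with the block as well. With 1 library left out, DUSP5 ranged from -0.0689 to 0.0725, DUSP6 from -0.22 to 0.11, ETV4 from -0.24 to 0.0061, AREG from -0.19 to 0.2067, FRS3 from -0.0092 to 0.3219 and IGF1R from -0.0121 to 0.0579. FRS2 ranged from -1.06 to -0.34 and EREG from -0.51 to -0.06 (the lower ends without knockdown replicate 1, the upper ends without knockdown replicate 2), RRAS from 0.23 (without control replicate 1) to 0.62, FGFR3 from 0.06 (without knockdown replicate 3) to 0.38 (both upper ends without knockdown replicate 1), and HBEGF from 0.09 (without control replicate 3) to 0.34 (without knockdown replicate 3). Among the 10 genes depth limits SPRY2 most (314 to 413 reads), and among the other named genes FRS3 (45 to 118 reads).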
